A study of Mus musculus with 31 samples.

Results

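The translation initiation and elongation factors examined here were 46 genes, taken by symbol from the deposited gene tables of mouse Ba/F3 cells. They were found among 41255 listed genes, all 46 were present in both the total mRNA and the polysomal table, and all 46 passed the filter on low values, a mean of at least 10 normalized read counts. Within them, 17 factors were set apart as known 5'TOP mRNAs, namely Eef1a1, Eef1b2, Eef1g, Eef2, Pabpc1 and the 12 listed Eif3 subunits, and the remaining 29 formed the comparison set. Eif4b and Eef1d, whose mRNAs have also been described as 5'TOP, stayed among the 29.

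Ba/F3 is an IL-3 dependent mouse pro-B cell line. All clones carried an shRNA against endogenous Rpl10 together with a retroviral cDNA of human RPL10, a protein of the large ribosomal subunit, in its wild type (WT) or R98S form. R98S replaces an arginine by a serine and recurs in T-cell acute lymphoblastic leukemia. Each genotype was represented by 3 monoclonal cultures grown from single cells, R98S clones 11, 13 and 35 and WT clones 28, 29 and 36. By their labels, libraries of a clone are thus repeat cultures of the same cells. Total mRNA was sequenced in 9 R98S and 8 WT libraries. Polysomal RNA, that is RNA of the pooled sucrose gradient fractions in which a transcript carries at least 2 ribosomes, was sequenced in 8 R98S and 6 WT libraries, each with a total mRNA library of the same clone and replicate number (1 to 3). For R98S clone 13, polysomal counts differed little between replicates 1 and 2, at a chi-square per gene of 4.36. Every other library pair of the same clone and fraction had at least 28.1. The total mRNA of these 2 cultures had 65.0. Whether both polysomal libraries hold the same RNA was not tested. They were counted as separate cultures, each paired with its own total mRNA library. The study set aside 1 more library, total mRNA of WT clone 36 (number 1), which clustered with R98S by principal components. It was not analysed here, and the WT group was thus in part selected by profile.

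Initiation factors bring the small ribosomal subunit with the initiator tRNA to the 5' cap of an mRNA, elongation factors deliver aminoacyl-tRNA and move the ribosome along the codons, and release and recycling factors end the cycle. Many mRNAs for elongation factors, for ribosomal proteins and for some initiation factors begin at a C that is followed by an unbroken run of pyrimidines, the 5' terminal oligopyrimidine (5'TOP) motif. Ribosomes load on such mRNAs together when mTORC1 is active, and these mRNAs leave polysomes together when it is inhibited, in part through the cap-binding protein Larp1.

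To show what the 5'TOP class means at the sequence level, windows of 30 bases near annotated transcription starts were read from RefSeq (GRCm38.p6). A window was placed around the tract defined next where one was found, and around the start otherwise. A tract was defined as a C followed by at least 5 further C or T (C and T in any order, searched on the strand of the gene) that begins between base -10 and base +20 of an annotated start. Of the 17 5'TOP factors 12 had an entry, and 5 of the 12 (41.7%) held such a tract, compared with 6 of 23 (26.1%) remaining factors with an entry, 35 of 57 (61.4%) cytosolic ribosomal proteins and 7724 of 27025 genes in the table (28.6%). The windows of 4 5'TOP factors with a tract are shown first, then Eef1b2 as a 5'TOP factor in which these letters were not found in the window, and Abce1 and Eif2b5 as factors outside the class that carry a tract. Capitals mark the tract, and the windows run 5' to 3' on the strand of the gene. For Eif2b5 the capitals begin at the edge of the search, and the pyrimidines directly before them belong to the same run.
Eef1a1: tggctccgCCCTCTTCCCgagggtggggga
Eif3f: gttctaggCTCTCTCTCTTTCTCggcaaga
Eif3k: tgaaagcgCCTTTCCCTTTgccttccttgt
Eif3l: ttcttccgCTCTCTCCCacgggcttctgga
Eef1b2: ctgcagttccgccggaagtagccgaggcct
Abce1: cgtcatcaCTCCCTCCagggcgccgactct
Eif2b5: attccttcCTCTTTCTCTCCCTgcaactac
These windows lie at chr9:78481708-78481737 (minus strand) for Eef1a1, chr7:108934403-108934432 (plus strand) for Eif3f, chr7:28981854-28981883 (minus strand) for Eif3k, chr15:79075219-79075248 (plus strand) for Eif3l, chr1:63176821-63176850 (plus strand) for Eef1b2, chr8:79711709-79711738 (minus strand) for Abce1 and chr16:20498799-20498828 (plus strand) for Eif2b5. The tract of Eif3f was the longest of the class, 15 bases that began 4 bases before the annotated start, and that of Eef1a1 spanned 10 bases from 5 bases before it. Those of Eif3l, Eif3k and Abce1 began 4, 13 and 10 bases after it. The windows of Eif3k and Abce1 do not contain the annotated start, so their tracts are not at the 5' end by annotation. A tract near an annotated start is a description of letters, and the starts used in these cells were not measured.

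Libraries held 8831180 to 22059792 reads on genes. The 46 factors together took 3.53% to 5.48% of the reads of a library, and Eef1a1 alone took 0.856% to 2.22%. The targeted gene Rpl10 spanned 901 to 2984 normalized read counts in R98S total mRNA, against 620.3 to 5715 for WT, values that reads of the human cDNA can enter. In polysomal RNA it was lower in R98S, at 666 to 2046 against 1099 to 5567, a log2 difference of -1.20 (SE 0.36, adjusted p 0.0490). Of 12 Ba/F3 markers 8 reached a mean of 10 normalized read counts, and the summed level of the list was 130344 to 240437 in R98S total mRNA, against 76096 to 131584 for WT. Most of this sum came from the receptor genes Csf2rb (mean 94858 against 41121) and Csf2rb2 (70967 against 30587), while Ptprc (3989 against 5587) and Gata2 (19416 against 22529.5) had lower means in R98S. Of 10 B-cell markers only Cd79a and Cd79b reached a mean of 10, while Pax5 did not. Mast cell markers, of which 4 of 7 reached it, summed to 293 to 3947 in R98S and 77.9 to 497 in WT total mRNA. Erythroid markers (3 of 7) summed to 218 to 1275 and 507 to 2310.0, T-cell markers (3 of 9) to 84.1 to 156 and 38.4 to 246, and myeloid markers (3 of the 7 in the table) to 2.76 to 417 and 51.0 to 567. Cd3g (mean 6.58 against 57.1) and Cd14 (3.27 against 74.9) had lower means in R98S, as did Lyz2 (9.85 against 50.6). Higher means in R98S were those of Cd3d (57.1 against 15.3), Lck (55.5 against 35.4) and Mpo (46.4 against 28.2). The polysomal T-cell sums did not overlap, with 86.9 to 361 in R98S and 37.0 to 73.2 in WT, while the myeloid sums were 2.93 to 68.4 and 29.3 to 948. None of 6 fibroblast and epithelial markers reached a mean of 10. The part of these differences in the results below was not tested. Over the genes called between genotypes, the total mRNA libraries of R98S clones 13 and 35 with number 2 lay 32.7% and 31.6% of the way from the R98S to the WT mean, and the count without them is given beside the total mRNA comparison.

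Levels per kilobase of exon spanned a wide range among the factors. Eef1a1, which delivers aminoacyl-tRNA to the ribosome, stood highest, at 116983 ± 17147 normalized read counts per kilobase in WT total mRNA (SD, n = 8). Eef2, the translocase, followed with 31350.2 ± 3248 and Eef1g, a subunit of the exchange factor for eEF1A, with 22296 ± 1807. The lowest level was that of Eif2b3, a subunit of the exchange factor for eIF2, at 65.5 ± 37.1. The values of Eef1a1, Eef2 and Eef1g did not overlap among the WT libraries, since they ranged from 87144 to 144239, from 26935 to 35183 and from 19809.9 to 25527, respectively. Some levels can hold reads of near-identical copies. At least 10% of the 50-base stretches of 13 factors are found in transcripts annotated to another gene as well, the share being 69.3% for Pabpc4, 65.3% for Eif4a1, 64.3% for Eef1g and 53.6% for Eef1a1. Exons of Eif3d, Eif5b and Eif1b overlap exons of an antisense gene over 43.3%, 16.8% and 12.7% of their length, and as the strand setting of the counting is not given in the sources used here, reads of the partners cannot be told apart.

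The first comparison asked which factors differ between R98S and WT in total mRNA. Here 15 of 46 factors differed at an adjusted p under 0.1 (limma), 8 higher and 7 lower in R98S. The share of 32.6% lay close to the background of 30.3% over 11133 genes, of which 14.5% were higher and 15.8% lower. Higher in R98S were Eef2k, Eif2b3, Eif5a, Eif4g2, Eif5b, Eif2b5, Eif2b4 and Eif3f, and lower were Eif4ebp1, Eif1b, Eef2, Eif4a2, Eif3e, Pabpc1 and Eif3k. Fewer cells that contain an mRNA and less of it per cell cannot be told apart in such bulk libraries. Quantile normalization called 11 higher and 4 lower in place of 8 and 7, edgeR on recovered reads 4 and 7, and DESeq2 5 and 7, where the same fits called 3359, 3289 and 3556 of all genes. No factor separated all R98S from all WT libraries (0 of 46, where 3.53% of genes did). The 3 clone means of a genotype did not overlap those of the other for 22 of 46 factors, beside 38.9% of genes. Libraries of the same number deviated together, and with the number as a block 20 factors were called (12 higher, 8 lower), beside a background of 38.4% (18.5% higher, 19.9% lower). Without R98S clones 13 and 35 of number 2 the count was 18, and without WT clone 29 of number 1 it was 19, beside 3805 and 3878 of all genes. It was 2 without R98S clone 11, 3 without WT clone 28, 9 without WT clone 29 or 36, 5 without number 2 and 2 without number 3. Calls over all 11133 genes fell in the same fits, from 3369 to 1893, 2215, 2726, 2811, 2428 and 1339, in that order.

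In polysomal RNA the same comparison called 4 factors, with Eef2k and Eif3f higher and Eif4a2 and Abce1 lower in R98S. This share of 8.70% lay under the background of 13.5% of 10707 genes (7.66% higher, 5.87% lower). With the replicate block the count rose to 15 factors, 5 higher and 10 lower, where the background was 30.9% (15.2% higher, 15.7% lower). The blocked calls added Eif5b, Eef1b2 and Eif2s2 on the higher side and Eif1b, Eif2b1, Eif4e, Eif4g1, Eif4g3, Eif4h, Eif4ebp1 and Eif5 on the lower side. As in total mRNA, 0 of 46 factors separated all libraries by genotype (4.96% of genes did), and clone means did not overlap for 13 of 46, beside 28.5% of genes. Without WT clone 29 of number 1, the only WT polysomal library of that number, 4 factors were called, 0 higher and 4 lower, of which 2 were shared with the 4 above, beside 1434 of all genes. Leaving out R98S clone 11, 13 or 35 gave 1, 2 and 1 calls, leaving out WT clone 36 gave 2, and without number 1 there were 0. Over all 10707 genes these fits called 967, 1122, 823, 1142 and 611, in place of 1449.

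Translational efficiency (TE) was taken as the difference of log2 polysomal and log2 total values of the same culture, in 8 R98S and 6 WT cultures. No factor was called (0 of 46 by limma and by edgeR, with and without the block), beside 0.0376% of 10627 genes without and 0.47% with the block. At an unadjusted p under 0.05 stood 2 factors, Eif5 and Abce1, where 5.96% of genes did, and with the block 8 factors, where 12.4% did. No factor separated all cultures by genotype (0.169% of genes did). The 2 tables were normalized separately, so the 0 of TE depends on scaling. A TE value says only how a gene compares with other genes. In single cultures the median of all genes was -0.36 to -0.21.

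**Figure D1:**
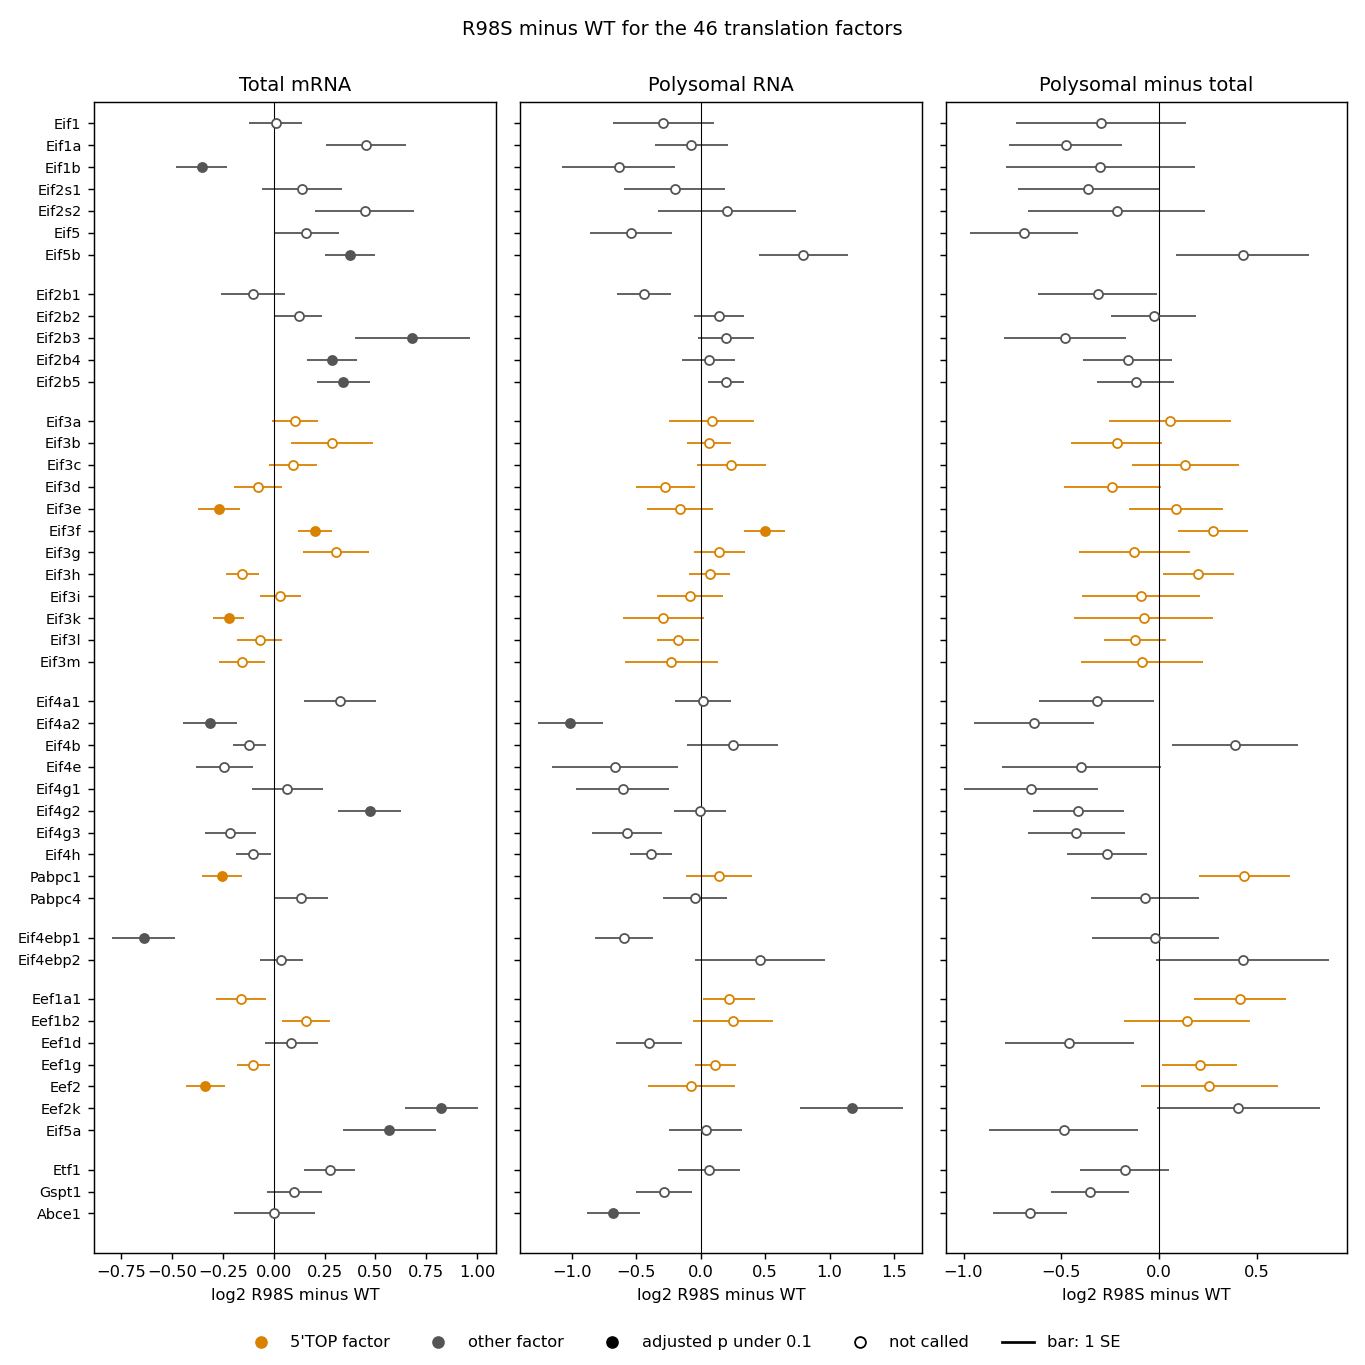
Differences of mean log2 values, R98S minus WT, of the 46 factors in total mRNA (17 libraries), polysomal RNA (14 libraries) and TE (14 cultures), grouped by role from start codon selection to termination. Bars are 1 SE, orange marks the 17 5'TOP factors, and filled points passed an adjusted p under 0.1: 15 factors for total mRNA, 4 for polysomal RNA and 0 for TE.

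Among the factors of start codon selection and eIF2, which carries the initiator tRNA, 1 of 7 was higher and 1 lower in total mRNA (28.6% called, beside 30.3% of all genes). Eif5b, the GTPase that joins the subunits, was found at 4486 ± 803 (SD, n = 9) for R98S against 3451 ± 615 (SD, n = 8) for WT, which is a log2 difference of 0.37 (SE 0.12, adjusted p 0.0324) with 5 of the 9 R98S libraries above all 8 WT libraries. In polysomal RNA it had 0.80 (SE 0.35, adjusted p 0.188) and was called as 0.73 with the block (SE 0.26, adjusted p 0.0575, with a range of 0.0575 to 0.715 over 22 alternatives). Eif1b, a paralog of the start codon scanning factor eIF1, was lower in total mRNA, -0.35 (SE 0.12, adjusted p 0.0460), with 3 of the 9 R98S libraries below all 8 WT libraries. Its polysomal difference was -0.64 (SE 0.44, adjusted p 0.459) and -0.43 with the block (SE 0.14, adjusted p 0.0377, with a range of 0.0377 to 0.745 over 22 alternatives). For Eif1a, which helps to open the small subunit for scanning, the total mRNA difference of 0.45 (SE 0.20, adjusted p 0.106) became 0.41 with the block (SE 0.14, adjusted p 0.0325, with a range of 0.0226 to 0.305 over 24 alternatives). Of 24 alternatives in total mRNA the number that kept the call was 21 for Eif5b and 17 for Eif1b. The polysomal difference of Eif1a was -0.074 (SE 0.28, adjusted p 0.927), and the TE differences of the 3 genes were 0.43 (SE 0.34, adjusted p 0.907) for Eif5b, -0.30 (SE 0.48, adjusted p 0.951) for Eif1b and -0.48 (SE 0.29, adjusted p 0.859) for Eif1a.

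The eIF2 subunit gene Eif2s2 had a total mRNA difference of 0.45 (SE 0.24, adjusted p 0.200) and 0.41 with the block (SE 0.16, adjusted p 0.0673, with a range of 0.0488 to 0.434 over 24 alternatives). In polysomal RNA it passed with the block alone, by a narrow margin, from 0.20 (SE 0.53, adjusted p 0.890) to 0.40 with the block (SE 0.17, adjusted p 0.0997, with a range of 0.0997 to 0.997 over 22 alternatives). Eif5, which triggers GTP hydrolysis by eIF2, had -0.54 (SE 0.32, adjusted p 0.365) in polysomal RNA and -0.42 with the block (SE 0.16, adjusted p 0.0622, with a range of 0.0622 to 0.775 over 22 alternatives). Its TE was -0.83, -0.15 and 0.64 in R98S and -0.070, 0.61 and 1.39 in WT (lowest, median and highest, log2), with 5 of the 8 R98S libraries below all 6 WT libraries, and the TE difference was -0.69 (SE 0.28, adjusted p 0.747). Total mRNA of Eif5 differed by 0.16 (SE 0.16, adjusted p 0.50), and TE of Eif2s2 by -0.22 (SE 0.45, adjusted p 0.960). The remaining Eif1 and Eif2s1 were not called in any comparison, with differences of 0.0089 and 0.14 in total mRNA and -0.29 and -0.20 in polysomal RNA.

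The subunits of eIF2B, the exchange factor that recharges eIF2 with GTP, included 3 of 5 called in total mRNA, all higher in R98S, where 14.5% of genes were called higher. Eif2b3 differed by 0.68 (SE 0.28, adjusted p 0.0892), with lowest, median and highest counts of 364, 573 and 948 in R98S and 215, 308 and 865 in WT and 2 of the 9 R98S libraries above all 8 WT libraries. Eif2b5, the catalytic subunit, differed by 0.34 (SE 0.13, adjusted p 0.0671) and Eif2b4 by 0.29 (SE 0.12, adjusted p 0.0966). For these 2 genes the genotypes overlapped more, since 0 of the 9 R98S libraries exceeded all WT libraries. The rise of these 3 mRNAs had no counterpart among the polysomal calls, where the differences were 0.20 (SE 0.22, adjusted p 0.696) for Eif2b3, 0.061 (SE 0.20, adjusted p 0.915) for Eif2b4 and 0.20 (SE 0.14, adjusted p 0.479) for Eif2b5. Their TE differences were -0.48 (SE 0.31, adjusted p 0.879), -0.16 (SE 0.23, adjusted p 0.947) and -0.12 (SE 0.20, adjusted p 0.951). Eif2b1, the regulatory alpha subunit, went from -0.44 (SE 0.21, adjusted p 0.230) in polysomal RNA to -0.37 with the block (SE 0.11, adjusted p 0.0232, with a range of 0.0232 to 0.499 over 22 alternatives), and of 24 alternatives the call in total mRNA was kept in 15 for Eif2b3, 13 for Eif2b4 and 15 for Eif2b5. For Eif2b1 the difference was -0.10 (SE 0.16, adjusted p 0.685) in total mRNA and -0.31 (SE 0.30, adjusted p 0.928) in TE. Eif2b2 was called in no comparison (0.12 in total mRNA and 0.14 in polysomal RNA).

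Of the 12 subunits of eIF3, the large scaffold that holds mRNA and initiation factors on the small subunit, 1 was higher and 2 were lower in total mRNA (25% called, beside 30.3% of all genes), and 1 was higher in polysomal RNA (8.33%, beside 13.5%). Eif3f (chromosome 7, 108934417 to 108942951, plus strand, GRCm38) was called in both. Its normalized read counts (lowest, median and highest) were 9088, 11487 and 12493 in R98S and 8545, 9502 and 10959 in WT in total mRNA and 10669, 12838 and 15463 in R98S and 7367, 9164 and 11417 in WT in polysomal RNA. The polysomal groups were nearly apart, with 7 of the 8 R98S libraries above all 6 WT libraries, and in total mRNA with 6 of the 9 R98S libraries above all 8 WT libraries. The differences were 0.20 (SE 0.082, adjusted p 0.0833) in total mRNA and 0.50 (SE 0.16, adjusted p 0.0584) in polysomal RNA, and they were 0.75, 0.42 and 0.51 within numbers 1, 2 and 3 of the polysomal libraries. TE of Eif3f differed by 0.28 (SE 0.18, adjusted p 0.877). Of 24 alternatives in total mRNA the call was kept in 13 for Eif3f, 13 for Eif3e and 15 for Eif3k, and the polysomal call of Eif3f in 13 of 22. Eif3e, another subunit, was lower in total mRNA, with a difference of -0.27 (SE 0.10, adjusted p 0.0689) with 3 of the 9 R98S libraries below all 8 WT libraries, with -0.16 (SE 0.25, adjusted p 0.804) for polysomal RNA and 0.086 (SE 0.24, adjusted p 0.975) for TE. Eif3k, a small peripheral subunit, was lower as well, with a difference of -0.22 (SE 0.076, adjusted p 0.0421) with 4 of the 9 R98S libraries below all 8 WT libraries, with -0.29 (SE 0.31, adjusted p 0.689) for polysomal RNA and -0.077 (SE 0.36, adjusted p 0.984) for TE.

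The other 9 eIF3 subunits were not called without the block. Eif3a, the scaffold subunit, had 0.10 (SE 0.11, adjusted p 0.545) in total mRNA, 0.087 (SE 0.33, adjusted p 0.927) for polysomal RNA, and 0.057 (SE 0.31, adjusted p 0.984) for TE. Eif3b, which also belongs to the core, had 0.29 (SE 0.20, adjusted p 0.330) in total mRNA, 0.065 (SE 0.17, adjusted p 0.892) for polysomal RNA, and -0.22 (SE 0.23, adjusted p 0.929) for TE. Eif3c, a further core subunit, had 0.094 (SE 0.12, adjusted p 0.605) in total mRNA, 0.24 (SE 0.27, adjusted p 0.701) for polysomal RNA, and 0.14 (SE 0.27, adjusted p 0.959) for TE. Both core subunits Eif3b and Eif3c thus had differences smaller than 2 SE in each comparison. Eif3d, which can bind the cap, had -0.077 (SE 0.12, adjusted p 0.682) in total mRNA, -0.27 (SE 0.23, adjusted p 0.570) for polysomal RNA, and -0.24 (SE 0.25, adjusted p 0.929) for TE. For Eif3g, an RNA-binding subunit, the values were 0.31 (SE 0.16, adjusted p 0.182) in total mRNA, 0.14 (SE 0.20, adjusted p 0.766) for polysomal RNA, and -0.12 (SE 0.29, adjusted p 0.962) for TE, and in total mRNA it passed as 0.26 with the block (SE 0.10, adjusted p 0.0689, with a range of 0.0276 to 0.497 over 24 alternatives).

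Eif3h, a partner of Eif3f in the outer part of the complex, showed -0.16 (SE 0.082, adjusted p 0.181) in total mRNA, 0.069 (SE 0.16, adjusted p 0.875) for polysomal RNA, and 0.20 (SE 0.18, adjusted p 0.916) for TE. Eif3i, a propeller subunit bound to Eif3b, showed 0.031 (SE 0.10, adjusted p 0.857) in total mRNA, -0.083 (SE 0.26, adjusted p 0.909) for polysomal RNA, and -0.092 (SE 0.30, adjusted p 0.976) for TE. The peripheral subunit Eif3l showed -0.070 (SE 0.11, adjusted p 0.697) in total mRNA, -0.18 (SE 0.17, adjusted p 0.626) for polysomal RNA, and -0.12 (SE 0.16, adjusted p 0.943) for TE. Eif3m, the last of the set, showed -0.16 (SE 0.11, adjusted p 0.344) in total mRNA, -0.23 (SE 0.36, adjusted p 0.807) for polysomal RNA, and -0.087 (SE 0.31, adjusted p 0.978) for TE. Signs were mixed among the 12 subunits, with 6 above 0 and 6 below 0 in both total mRNA and polysomal RNA, and the medians were -0.019 and -0.0088. In TE 5 of 12 were above 0 with a median of -0.082, and with the block 9 of 12 with a median of 0.087.

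The cap-binding complex eIF4F and its helpers held the largest polysomal decrease. Eif4a2 (chromosome 16, 23107444 to 23114136, plus strand), a paralog of the RNA helicase eIF4A, had polysomal read counts (lowest, median and highest) of 1678, 2379 and 3254 in R98S and 2594, 4312 and 7704 in WT. The lowest WT value exceeded 5 of 8 R98S values, and the difference was -1.01 (SE 0.25, adjusted p 0.0163). It was -1.12, -0.65 and -1.06 within numbers 1, 2 and 3, and 21 of 22 alternatives kept the call, the exception being the fit without number 1. In total mRNA Eif4a2 had 2668, 3468 and 4566 in R98S and 3416, 3979 and 5825 in WT, with 4 of the 9 R98S libraries below all 8 WT libraries and a difference of -0.31 (SE 0.13, adjusted p 0.0924). TE of Eif4a2 was -0.65 ± 0.39 (SD, n = 8) for R98S against -0.0078 ± 0.82 (SD, n = 6) for WT, and the difference of -0.64 (SE 0.31, adjusted p 0.838) did not pass. Its paralog Eif4a1 was called in no comparison, at 0.32, 0.018 and -0.32.

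Of the eIF4G proteins, which bridge the cap-binding protein and the ribosome, Eif4g2 was higher in total mRNA by 0.47 (SE 0.15, adjusted p 0.0341), with values of 25944 ± 4096 (SD, n = 9) for R98S against 19174 ± 5296 (SD, n = 8) for WT and 5 of the 9 R98S libraries above all 8 WT libraries. Eif4g2 encodes a relative of eIF4G that lacks the site for eIF4E, and in polysomal RNA its difference was -0.0051 (SE 0.20, adjusted p 0.994). Eif4g1, the main bridging protein, had 0.067 (SE 0.17, adjusted p 0.819) in total mRNA, -0.61 (SE 0.36, adjusted p 0.368) in polysomal RNA and -0.73 with the block (SE 0.16, adjusted p 0.00345, with a range of 0.00345 to 0.805 over 22 alternatives). Eif4g3 was lower with the block in both fractions, as -0.24 with the block (SE 0.10, adjusted p 0.0833, with a range of 0.0698 to 0.510 over 24 alternatives) in total mRNA and -0.69 with the block (SE 0.13, adjusted p 0.00105, with a range of 0.000968 to 0.526 over 22 alternatives) in polysomal RNA, where the values without it were -0.21 (SE 0.13, adjusted p 0.235) and -0.57 (SE 0.27, adjusted p 0.231). Eif4e, which binds the cap, had a polysomal difference of -0.67 (SE 0.49, adjusted p 0.496), and -0.46 with the block (SE 0.15, adjusted p 0.0345, with a range of 0.0345 to 0.831 over 22 alternatives). Eif4h, a cofactor of the helicase, went from -0.38 (SE 0.16, adjusted p 0.176) to -0.36 with the block (SE 0.15, adjusted p 0.0843, with a range of 0.0584 to 0.692 over 22 alternatives) in polysomal RNA. Total mRNA differences were -0.24 (SE 0.14, adjusted p 0.231) for Eif4e and -0.10 (SE 0.088, adjusted p 0.440) for Eif4h. In TE the differences were -0.65 (SE 0.34, adjusted p 0.843) for Eif4g1, -0.41 (SE 0.23, adjusted p 0.846) for Eif4g2, -0.42 (SE 0.25, adjusted p 0.856) for Eif4g3, -0.40 (SE 0.41, adjusted p 0.929) for Eif4e and -0.27 (SE 0.20, adjusted p 0.904) for Eif4h. The total mRNA calls were kept, of 24 alternatives, in 14 for Eif4a2, 20 for Eif4g2 and 14 for Pabpc1. Eif4b, another cofactor, and Pabpc4 were called in no comparison, at -0.12 and 0.13 in total mRNA and 0.25 and -0.042 in polysomal RNA.

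Pabpc1 (chromosome 15, 36595661 to 36609668, minus strand), the cytoplasmic poly(A)-binding protein and a 5'TOP factor, was lower in total mRNA. Its read counts were 57236, 66644 and 85127 in R98S and 68122, 79397 and 98685 in WT (lowest, median and highest), with 5 of the 9 R98S libraries below all 8 WT libraries and a difference of -0.26 (SE 0.10, adjusted p 0.0710). In polysomal RNA the difference was 0.14 (SE 0.26, adjusted p 0.835), and in TE 0.44 (SE 0.23, adjusted p 0.843). Eif4ebp1 (chromosome 8, 27260329 to 27276674, plus strand), the mTORC1-controlled inhibitor of eIF4E, had the largest decrease of the 46 factors in total mRNA. Counts of Eif4ebp1 were 1068, 1655 and 2648 in R98S and 1915, 2597 and 3039.7 in WT. The lowest WT value exceeded 7 of 9 R98S values, and the difference of -0.64 (SE 0.15, adjusted p 0.00596) was -0.46, -0.49 and -1.02 within numbers 1, 2 and 3. It was called under 23 of 24 alternatives. In polysomal RNA the difference was -0.60 (SE 0.23, adjusted p 0.122) and -0.52 with the block (SE 0.11, adjusted p 0.00285, with a range of 0.00285 to 0.390 over 22 alternatives), and in TE -0.018 (SE 0.32, adjusted p 0.995). The related Eif4ebp2 was not called, at 0.038 for total mRNA and 0.46 for polysomal RNA.

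**Figure D2:**
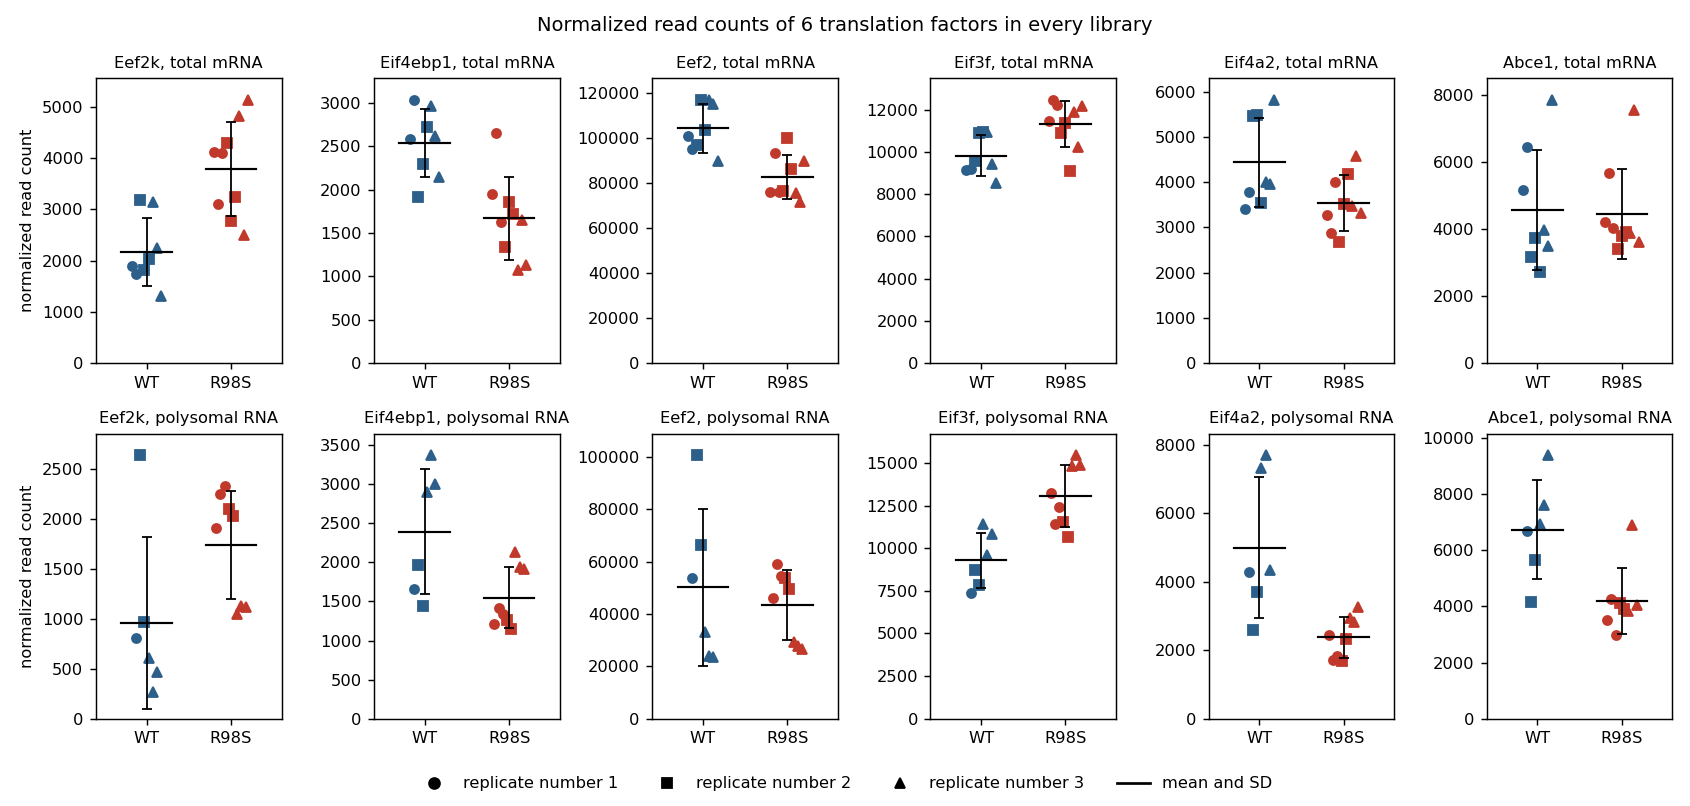
Normalized read counts of Eef2k, Eif4ebp1, Eef2, Eif3f, Eif4a2 and Abce1 in every total mRNA library (top row, 8 WT and 9 R98S) and polysomal library (bottom row, 6 WT and 8 R98S), with symbols for the replicate number and lines for mean and SD. Groups overlap in every panel, and the polysomal levels of Eef2 and Eef2k in number 3 lie below those of numbers 1 and 2 in both genotypes.

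Among the elongation factors a kinase and its substrate were called in opposite directions in total mRNA. Eef2k (chromosome 7, 120842831 to 120907450, plus strand), the kinase that phosphorylates and inhibits eEF2, had the largest increase of the 46 factors. Its total mRNA counts were 2499, 4096 and 5141 in R98S and 1299.5, 1959 and 3187 in WT (lowest, median and highest), with 6 of the 9 R98S libraries above all 8 WT libraries. The difference was 0.82 (SE 0.18, adjusted p 0.00295), was 1.05, 0.57 and 0.92 within numbers 1, 2 and 3, and stayed called under 24 of 24 alternatives. In polysomal RNA the counts were 1051, 1968 and 2324 in R98S and 263, 707 and 2639 in WT. The groups overlapped there through a single library, that of WT clone 28 with number 2 at 2639, since the other 5 WT libraries reached 968 at most. The polysomal difference was 1.17 (SE 0.40, adjusted p 0.0810), with 1.42, 0.37 and 1.38 within numbers 1, 2 and 3, and it was called under 11 of 22 alternatives. TE of Eef2k differed by 0.41 (SE 0.42, adjusted p 0.929).

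Eef2 (chromosome 10, 81176631 to 81182498, plus strand), the translocase, was lower in R98S total mRNA. Counts were 71559, 76291 and 99712 in R98S and 89531, 101944 and 116948 in WT (lowest, median and highest), with 6 of the 9 R98S libraries below all 8 WT libraries. The difference of -0.34 (SE 0.10, adjusted p 0.0176) was -0.27, -0.28 and -0.44 within numbers 1, 2 and 3 and was kept under 21 of 24 alternatives. In polysomal RNA Eef2 had 26455, 47759 and 58987 in R98S and 23631, 43463 and 100789.7 in WT, so that the spread within a genotype exceeded the difference of -0.073 (SE 0.34, adjusted p 0.942). TE of Eef2 differed by 0.26 (SE 0.35, adjusted p 0.945).

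Eef1a1 (chromosome 9, 78478449 to 78489151, minus strand) was not called in any comparison. Its counts were 193934, 251435 and 331885 in R98S and 217249, 297181 and 359588 in WT in total mRNA and 202849, 222384 and 264714 in R98S and 146133, 203716 and 256418 in WT in polysomal RNA (lowest, median and highest). The R98S minus WT difference was -0.16 (SE 0.12, adjusted p 0.371) in total mRNA, 0.22 (SE 0.20, adjusted p 0.615) for polysomal RNA, and 0.42 (SE 0.23, adjusted p 0.846) for TE. The exchange factor subunits Eef1b2 and Eef1g did not pass without the block either. Eef1b2, which carries the exchange activity, had 0.16 (SE 0.12, adjusted p 0.358) in total mRNA, 0.25 (SE 0.31, adjusted p 0.736) for polysomal RNA, and 0.14 (SE 0.32, adjusted p 0.962) for TE, and its polysomal difference passed as 0.36 with the block (SE 0.15, adjusted p 0.0961, with a range of 0.0829 to 0.977 over 22 alternatives). Eef1g had -0.10 (SE 0.081, adjusted p 0.407) in total mRNA, 0.11 (SE 0.16, adjusted p 0.768) for polysomal RNA, and 0.21 (SE 0.19, adjusted p 0.920) for TE. Eif5a, which helps ribosomes through difficult peptide bonds, was higher in total mRNA at 17379.5 ± 3716 (SD, n = 9) for R98S against 12638 ± 6019 (SD, n = 8) for WT, a difference of 0.57 (SE 0.23, adjusted p 0.0832), although with 0 of the 9 R98S libraries above all 8 WT libraries. Its difference was 0.0059, 0.65 and 0.77 within numbers 1, 2 and 3, it kept its call in 13 of 24 alternatives, and it was 0.039 (SE 0.28, adjusted p 0.965) in polysomal RNA and -0.49 (SE 0.38, adjusted p 0.905) in TE. Eef1d, a further exchange subunit, was called in no comparison (0.086 in total mRNA, -0.40 in polysomal RNA).

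Abce1 (chromosome 8, 79683462 to 79711740, minus strand), the ATPase that splits ribosomes after termination, was called in polysomal RNA and not in total mRNA. Polysomal counts were 2975, 3982 and 6891 in R98S and 4159, 6810.0 and 9401 in WT, with 6 of the 8 R98S libraries below all 6 WT libraries, and the difference was -0.68 (SE 0.21, adjusted p 0.0483). It was -0.91, -0.27 and -0.74 within numbers 1, 2 and 3 and was kept under 16 of 22 alternatives. In total mRNA the groups overlapped widely, with 3399, 3913 and 7569 in R98S and 2720.2, 3858 and 7869.7 in WT and a difference of 0.0034 (SE 0.20, adjusted p 0.992). TE of Abce1 was -0.44, -0.076 and 0.16 in R98S and 0.051, 0.49 and 1.12 in WT (lowest, median and highest, log2), with 6 of the 8 R98S libraries below all 6 WT libraries. The TE difference of -0.66 (SE 0.19, adjusted p 0.594) is the test of whether the fractions differ in their response, and it did not pass over all genes. It passed in 1 of 22 alternatives, a fit with the correlation within clones (adjusted p 0.0534, with a range up to 1.00 over the alternatives). Etf1 and Gspt1, the release factors that read stop codons and hydrolyse GTP, were not called without the block, at 0.27 (SE 0.12, adjusted p 0.118) and 0.10 (SE 0.14, adjusted p 0.633) in total mRNA, and Etf1 passed there as 0.26 with the block (SE 0.094, adjusted p 0.0476, with a range of 0.0427 to 0.413 over 24 alternatives). In polysomal RNA Etf1 had 0.066 (SE 0.24, adjusted p 0.923) and Gspt1 -0.28, and TE of Etf1 differed by -0.17 (SE 0.23, adjusted p 0.943).

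The question of the 5'TOP class was whether its 17 factors differ from the other 29 in total mRNA, polysomal RNA and TE. In total mRNA the median difference between genotypes was -0.077 for the 5'TOP factors and 0.12 for the rest, beside a median of 0.0035 over all genes. Of the 5'TOP factors 1 was higher and 4 were lower, and of the rest 7 were higher and 3 lower, which makes 29.4% and 34.5% called beside 30.3% of all genes. In polysomal RNA the order was the other way, with 0.069 for the 5'TOP factors and -0.074 for the rest, where the median of all genes was -0.021. This order turned without WT clone 36, where the medians were 0.033 and 0.053, and with the block they were 0.024 and -0.055. There 1 of 17 and 1 of 29 were higher, and 0 of 17 and 2 of 29 lower, which makes 5.88% and 10.3% called beside 13.5% of all genes. With the block the polysomal calls numbered 2 higher and 0 lower among the 5'TOP factors, and 3 higher and 10 lower among the rest, or 11.8% and 44.8% called beside 30.9% of all genes. In TE the medians were 0.086 and -0.31 (0.10 and -0.14 with the block), beside 0.0062 over all genes. Of the 5'TOP factors 10 of 17 had a TE difference above 0, compared with 4 of 29 of the rest, and with the block 14 of 17 and 7 of 29. The class was not uniform in this. Among its 12 eIF3 subunits 5 were above 0 (9 with the block). Eef1a1, Eef1b2, Eef1g, Eef2 and Pabpc1 all were, without the block. Factors share libraries and are not replicates, so these counts describe the members and carry no test.

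The same contrast was taken library by library as the mean log2 value of the 17 5'TOP factors minus that of the other 29. For TE it was -0.047 ± 0.13 (SD, n = 8) for R98S and -0.37 ± 0.25 (SD, n = 6) for WT. By culture, R98S had 0.059, 0.025 and 0.095 in number 1 (clones 11, 13 and 35), -0.19 and -0.093 in number 2 (clones 13 and 35) and -0.16, 0.083 and -0.20 in number 3 (clones 11, 13 and 35). WT had -0.022 in number 1 (clone 29), -0.23 and -0.40 in number 2 (clones 28 and 29) and -0.55, -0.72 and -0.28 in number 3 (clones 28, 29 and 36). Within each number every R98S culture stood above every WT culture, while across numbers the groups overlapped through WT clone 29 of number 1. The R98S minus WT difference of means was 0.081, 0.17 and 0.43 in numbers 1, 2 and 3. The difference between the medians of the classes, 0.40, was 0.24 with the block, 0.25 without number 3, 0.34 without R98S clones 13 and 35 of number 2 and 0.57 without WT clone 29 of number 1. As the members were chosen with results of these data known, no p is given.

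In total mRNA the same contrast was 1.77 ± 0.12 (SD, n = 9) for R98S and 1.94 ± 0.22 (SD, n = 8) for WT, and the difference between genotypes was 0.0078, -0.27 and -0.17 in numbers 1, 2 and 3. The mean of the 5'TOP factors itself was 13.52 ± 0.13 for R98S and 13.56 ± 0.11 for WT, and that of the rest 11.75 ± 0.15 and 11.62 ± 0.28, each difference being smaller than the SD of either group. In polysomal RNA the contrast was 1.73 ± 0.11 (SD, n = 8) for R98S and 1.56 ± 0.21 (SD, n = 6) for WT, with differences of 0.12, -0.012 and 0.26 by number. The genotypes overlapped in both fractions, and the polysomal difference between the medians of the classes, 0.14, was -0.021 without WT clone 36, 0.035 without number 3, 0.47 without number 2 and 0.079 with the block. Taken apart, the mean TE of the 5'TOP factors differed between genotypes by 0.24, -0.010 and 0.17 within numbers 1, 2 and 3, and that of the rest by 0.16, -0.18 and -0.26. Both means stood above WT in number 1, and that of the rest stood below it in numbers 2 and 3. The split of the class differed between numbers, and within number 1, with 1 WT culture, the median TE difference was 0.20 for the 5'TOP factors and 0.26 for the rest, compared with 0.17 and -0.32 in number 3.

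**Figure D3:**
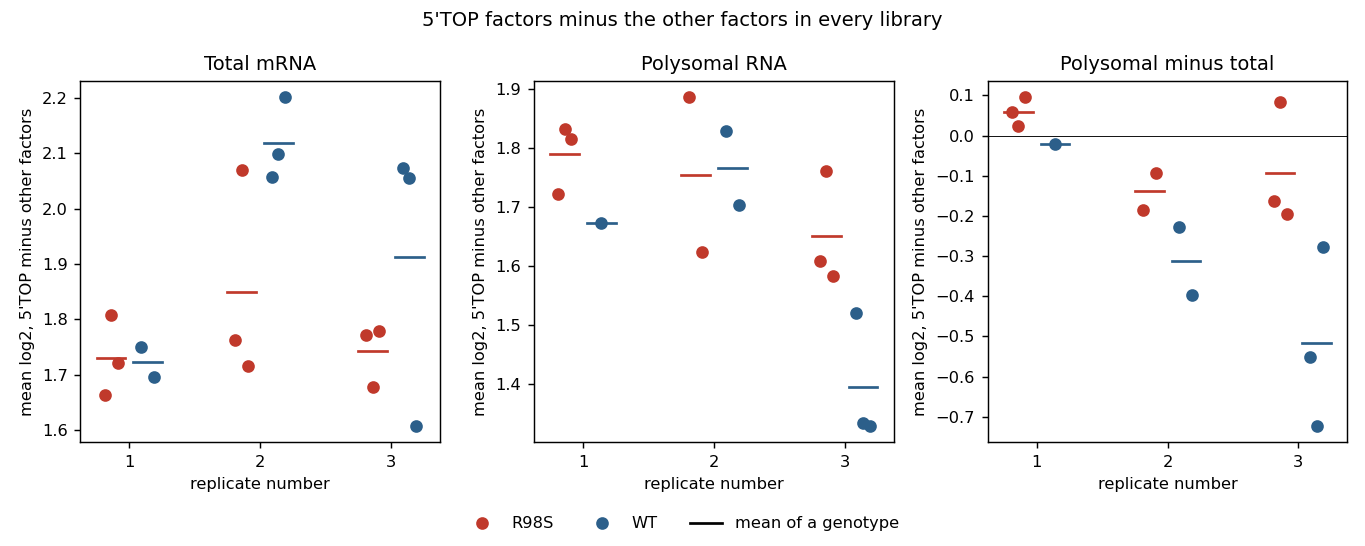
Mean log2 value of the 17 5'TOP factors minus that of the other 29 factors in each total mRNA library, polysomal library and, for TE, each culture, by replicate number and genotype (red R98S, blue WT, lines are means). In the TE panel all R98S cultures of a number stand above the WT cultures of that number, with differences of 0.081, 0.17 and 0.43.

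A narrower 5'TOP set of 8 factors (Eef1a1, Eef1b2, Eef1g, Eef2, Eif3e, Eif3f, Eif3h and Pabpc1) gave larger values. Its median difference was -0.16 for total mRNA, 0.13 for polysomal RNA and 0.23 for TE, and all 8 TE differences were above 0. The 78 cytosolic ribosomal protein genes in the tables, the main body of 5'TOP mRNAs, had medians of -0.041, -0.0036 and 0.037 in the same order. With the block these became -0.051, 0.15 and 0.24, and the TE difference was above 0 for 78 of 78 genes in place of 47, with 0 called (9 at an unadjusted p under 0.05). In total mRNA 6 of them were higher and 4 lower (12.8% called, beside 30.3% of all genes; with the block 7 and 7, or 17.9% beside 38.4%), in polysomal RNA 0 were called (1 at an unadjusted p under 0.05), beside 13.5% of all genes, and with the block 16 were higher and 0 lower there (20.5% called, beside 30.9% of all genes), with Rpl10a, Rps6 and Rpl7 among those with the smallest p. Their mean TE differed between genotypes by 0.57, 0.24 and 0.055 in numbers 1, 2 and 3. The mean TE of the full set of 5'TOP factors, likewise without subtracting the rest, differed by 0.24, -0.010 and 0.17.

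Further genes of the pathway were read from a list of 48 translation factors and regulators outside the 46. Of the shorter lists that follow, that of 5'TOP control shares Larp1, Larp1b and Larp4 with it, and that of 5'TOP mRNAs outside the ribosome holds Eif4b and Eef1d, which are among the 46. In total mRNA 41 were tested, and 6 were higher and 3 lower, or 22.0% beside 30.3% of all genes (with the block 7 and 6, or 31.7% beside 38.4%). Those with the smallest p were Eif2a, an alternative initiator tRNA factor (-0.66, SE 0.11, adjusted p 0.000344), Eif2ak1, the heme-regulated kinase of eIF2 (0.64, SE 0.12, adjusted p 0.000699), Larp4b (-0.28) and Eif4e2, a relative of eIF4E (0.50). In polysomal RNA 2 of 40 were higher and 1 lower (7.5% called, beside 13.5% of all genes), namely Eif2ak1 (0.62, SE 0.13, adjusted p 0.00539), Mknk1, a kinase of eIF4E (0.64, SE 0.21, adjusted p 0.0666), and Larp4, a poly(A)-binding relative of Larp1 (-0.50, SE 0.15, adjusted p 0.0412). With the block 6 were higher and 6 lower there, beside 30.9% of all genes called. Of 18 genes of 5'TOP control, the mTORC1 subunits and their targets among them, 11.1% were called in total mRNA, beside 30.3% of all genes. Of these 1 was higher, the mTOR inhibitor Deptor (0.43, SE 0.13, adjusted p 0.0252), and 1 lower, the mTORC1 activator Rheb (-0.25, SE 0.10, adjusted p 0.0890). With the block 2 were higher and 1 lower (16.7%, beside 38.4%). In polysomal RNA 1 was lower (5.56%, beside 13.5%), the same call of Larp4, and with the block 2 were higher and 4 lower (33.3%, beside 30.9%), among them Deptor (0.61, adjusted p 0.0293 with the block) and the mTORC1 inhibitor Tsc2 (-0.44, adjusted p 0.0392 with the block). Of 10 tested 5'TOP mRNAs outside the ribosome 2 were lower in both fractions (20% called, beside 30.3% and 13.5% of all genes), Hnrnpa1 (-0.62 and -0.63) and Vim (-1.15 and -1.55). With the block Tpt1 was called higher in both (0.30, adjusted p 0.0637, and 0.66, adjusted p 0.0161), which makes 30% beside 38.4% and 30.9% of all genes. In TE 0 of these 10 mRNAs were called. Their median TE difference was -0.084 with 4 of 10 above 0, and 0.040 with 6 of 10 above 0 with the block.

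Across both genotypes, the factors differed widely in how much of their mRNA was read in polysomes, as the polysomal minus total log2 value. Of the 46 factors 7 lay below 0 in all 14 cultures, namely Eif3a, Eif3c, Eif4g1, Eif4g3, Eif4ebp2, Eif5b and Eef2k, and 1, Eif3l, lay above 0 in all. The median of all genes was itself below 0, at -0.36 to -0.21 in single cultures, so 0 is not the typical gene. The share of all genes below 0 in every culture is not given here. The lowest mean was that of Eif3a at -2.37 (lowest -3.16, highest -1.22), followed by Eif4g1 at -2.13 and Eif4g3 at -1.77. The highest was that of Eif2s2 at 1.13. Over the 46 factors the mean fell with the length of the longest coding transcript (Spearman -0.51, Pearson -0.59 on log2 length), and single cultures gave Spearman values from -0.62 to -0.14. These correlations are across genes that share the same libraries and are given as a description. GC content had Spearman -0.047. The 5'TOP factors had a median length of 1899 bases and the others 3111. For the genotype difference in TE against length Spearman was -0.13, and the part of length in the difference between the classes was not tested.

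The replicate numbers differed in this measure. Medians in numbers 1, 2 and 3 were -0.097, -0.083 and 0.25 for the 5'TOP factors and -0.23, 0.28 and 0.47 for the rest. Number 1 holds 3 R98S and 1 WT cultures, number 2 holds 2 and 2, and number 3 holds 3 and 3. These values thus mix the genotypes in unlike shares. For 34 of the 46 factors the polysomal minus total value was higher in number 3 than in number 1, and the absolute difference between these numbers had a median of 0.43 for the 5'TOP factors and 1.05 for the rest. Eif1b went from 0.22 in number 1 to 1.92 in number 3, Eif2s2 from 0.066 to 2.04 and Eif4e from 0.085 to 1.73. In the opposite direction, Eif4ebp2 went from -0.34 to -2.13 and Eef2k from -0.87 to -2.08. These shifts between numbers exceeded the TE differences between genotypes of the same genes, which were -0.30, -0.22, -0.40, 0.43 and 0.41. What the number marks beyond a set of cultures is not given in the labels.

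**Figure D4:**
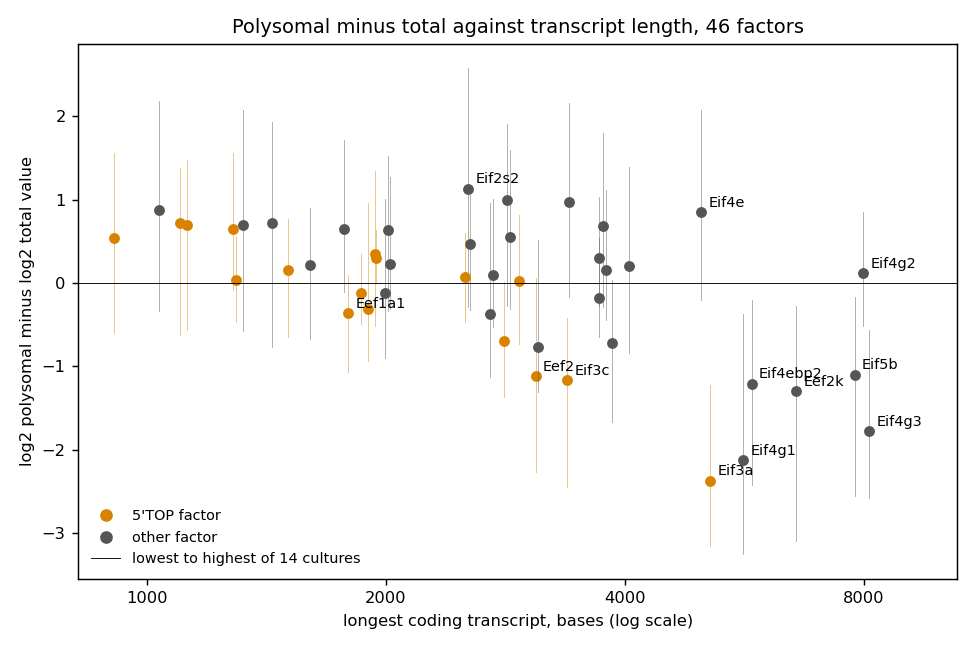
Mean polysomal minus total log2 value over 14 cultures of each of the 46 factors (orange 5'TOP, grey other) against the length of its longest coding transcript on a log scale, with thin lines from the lowest to the highest culture. Values fall with length, from 1.13 for Eif2s2 to -2.37 for Eif3a, with Eif4g2 as a long transcript near 0 at 0.12.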

How the data were processed

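As deposited, each value is a normalized signal: the authors counted reads on a gene and scaled each library of a table by its DESeq2 size factor. They removed the leading base of reads with seqtk, removed rRNA and tRNA reads with Bowtie2, aligned to mm10 with TopHat (version 2.0.11 in the submitters' processing notes) and counted primary alignments of mapping quality 10 or more on exons (HTSeq is named in those notes). The strand setting and annotation are not given in the sources used here. Dividing by the smallest step of a library turned 100% of values into whole reads (tolerance 0.001), and these reads gave 3289 calls in total mRNA with edgeR, beside 3369 with limma, and 1476 beside 1449 in polysomal RNA.

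Genotypes were compared with limma 3.58.1 (R 4.3.3, variance trend, two-sided) on log2(value + 1), which understates changes of low genes, over genes with a mean of at least 10, with Benjamini-Hochberg adjustment over all genes tested and calls at 0.1. Alternatives included edgeR 4.0.16, DESeq2 1.42.0, other scaling and filters, and leaving out clones and numbers. The fitting script was tested on simulated data. Babel, the tool of the study for TE, was not run. Same-numbered libraries correlated in their deviations from group means (r from 0.48 to 0.87), so values with the replicate block are printed for members whose call it changes, and counts with it for the other lists. By their labels, libraries are repeat cultures of 3 clones per genotype. The p-values treat them as separate, including the closely similar polysomal pair of R98S clone 13.

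Members and lists were chosen with earlier results of these data known. Named with full statistics are the 5'TOP factors and factors called in any comparison. From other lists at most 4 genes, those with the smallest p, are named. Coordinates, lengths and shared 50-base stretches came from GENCODE M21 (GRCm38), and start windows from RefSeq. Some items are not reported here.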

Additional observations from a re-analysis of the deposited data

Results flagged for a closer look

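In each group of 4 to 10 libraries, the most extreme library was compared with its nearest neighbour by Dixon's criterion, and 14 of 276 such groups had a library that stood apart. Chance flags about 1 in 20 groups. Of the 14, 5 fell on cultures of WT clone 29 with number 1, 5 on R98S clone 13 with number 3, 3 on WT clone 28 with number 2 and 1 on WT clone 28 with number 3.

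In total mRNA, WT clone 29 of number 1 was the highest WT library for Eif2b5 at 2660.1 normalized read counts (next 1824), for Eif3a at 20757 (next 15635), for Eif3i at 5485 (next 4143) and for Eif5b at 4776 (next 3784). WT clone 28 of number 3 was the highest for Eif3m at 3015. R98S clone 13 of number 3 was the lowest R98S library for Eif4ebp2 at 1438 and the highest for Etf1 at 7996.

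In polysomal RNA, R98S clone 13 of number 3 was the highest R98S library for Eif3d at 3343, for Gspt1 at 3999.5 and for Abce1 at 6891, where the next Abce1 value was 4260.1. WT clone 28 of number 2 was the highest WT library for Eif2b4 at 1159 and for Eef2k at 2639, where the next Eef2k value was 968.

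In TE, Eif3g in WT clone 29 of number 1 stood at -0.62 with the next WT culture at 0.72, and Eef1g in WT clone 28 of number 2 stood at 0.35 with the next at -0.20.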

How the results depend on the processing

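No factor called without the block changed sign in the comparison of its call under any alternative run, while Eif2s2 (in 3 of 22) and Eef1b2 (in 1 of 22), called in polysomal RNA with the block alone, did. Among repeat fits of the called factors 312 kept the call and 136 lost it. The cause of the changes below was not tested. For factors called in total mRNA (15), no filter on low values gave 6, the libraries with a polysomal partner 6, leaving out R98S clone 11 gave 2, WT clone 28 gave 3, WT clone 29 gave 9 and WT clone 36 gave 9, and leaving out each replicate number gave 2 to 12 (2 without number 3 and 5 without number 2). In polysomal RNA (4), the replicate block gave 15, edgeR with the block 14 (an alternative chosen after the data were seen), no filter 2, clone means 2, leaving out R98S clone 11, 13 or 35 gave 1, 2 and 1, leaving out WT clone 36 gave 2, and leaving out each number gave 0 to 6, with 0 without number 1. In TE (0), the correlation within clones gave 1, Abce1. In the same polysomal comparison the 5'TOP minus rest contrast of medians, 0.14 in the report's fit, was 0.079 with the replicate block, -0.021 without WT clone 36, and 0.0349 to 0.472 without each number, the highest without number 2. It ranged from -0.28 to -0.10 in total mRNA (-0.20 with the replicate block) and from 0.24 (replicate block) to 0.57 (without WT clone 29 of number 1, chosen after the data were seen) in TE. Scaling moved the median of all genes by less than 0.1. Of the factors not called, 7 of 31 in total mRNA, 27 of 42 in polysomal RNA and 22 of 46 in TE changed sign under at least 1 alternative. All 46 factors had a mean of at least 100 normalized read counts in both tables, and a limit set by depth was not tested. The number of clones, 3 per genotype, limits what the comparisons show.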
